A study of Rousettus aegyptiacus with 32 samples.

Results

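The regions described here are stretches of the Egyptian fruit bat genome that gave a strong ATAC-seq peak in every tissue sampled. In ATAC-seq a transposase cuts and tags DNA where chromatin is accessible, and sites cut often appear as peaks. Each library's list of peak intervals was cut to its 50000 strongest by the −log10 p of the peak, the lists of 19 libraries were merged wherever intervals overlapped, and a merged region was kept when it overlapped at least 1 of these intervals in each of the 19. The members are therefore selected on measured peak strength. Of 197904 merged regions, 10616 met the rule, which is 5.36%. Number, strength, rank and width are descriptions of that choice and carry no test.

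The libraries came from adult males of Rousettus aegyptiacus, in a study of regulatory elements and proteins that evolved convergently in mammals with vocal learning. Bats 1 and 3 each gave 7 brain regions (secondary auditory cortex or 2A, premotor cortex or PreM, primary motor cortex for the face and mouth, ofM1, and for the wing, wM1, caudate, putamen and cerebellum) and 3 other tissues (muscle, testis and liver). Neither animal is labelled as treated or altered, and all libraries were made from nuclei of cryopreserved bulk tissue. The choice used 14 brain and 5 other libraries, and left out liver of bat 1, so liver entered through bat 3 alone. The 2 animals gave 1 library per tissue each, so spread between them mixes animal and library. In bulk tissue, a cell type that is rare and a site that is weakly open in each cell cannot be told apart.

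As background, chromatin that is open in all tissues of a mammal lies mostly at promoters of genes that every cell uses and at sites bound by the insulator protein CTCF, whereas enhancers tend to be open in few tissues. Such promoters often lie in CpG islands, and their open stretch covers the nucleosome-free start site and the nucleosome gaps beside it. Which of these kinds of element the members hold was not analysed here, because the gene table used gave no scaffold for its genes and no genome sequence was used. For the same reason tissue markers were not checked, and regions are given by the scaffold positions in the deposited lists, counted from 1.

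Regions open everywhere formed a separate peak at the end of the distribution. Merged regions with a strong peak in 1 library were the most frequent, with 77492 (39.2%), followed by 36127 in 2 libraries. The number then fell, with small rises at 4, 8 and 12 libraries, to 2165 regions in 15 libraries, and it was 3040 in 18 libraries before it reached 10616 in all 19. Among the 3040 regions open in 18 libraries, liver of bat 3 was the missing one for 1310 (43.1%), testis of bat 3 for 678 (22.3%), muscle of bat 3 for 306 (10.1%) and testis of bat 1 for 220 (7.24%). Each of the 8 cortical libraries was missing in 24 or fewer.

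**Figure D1:**
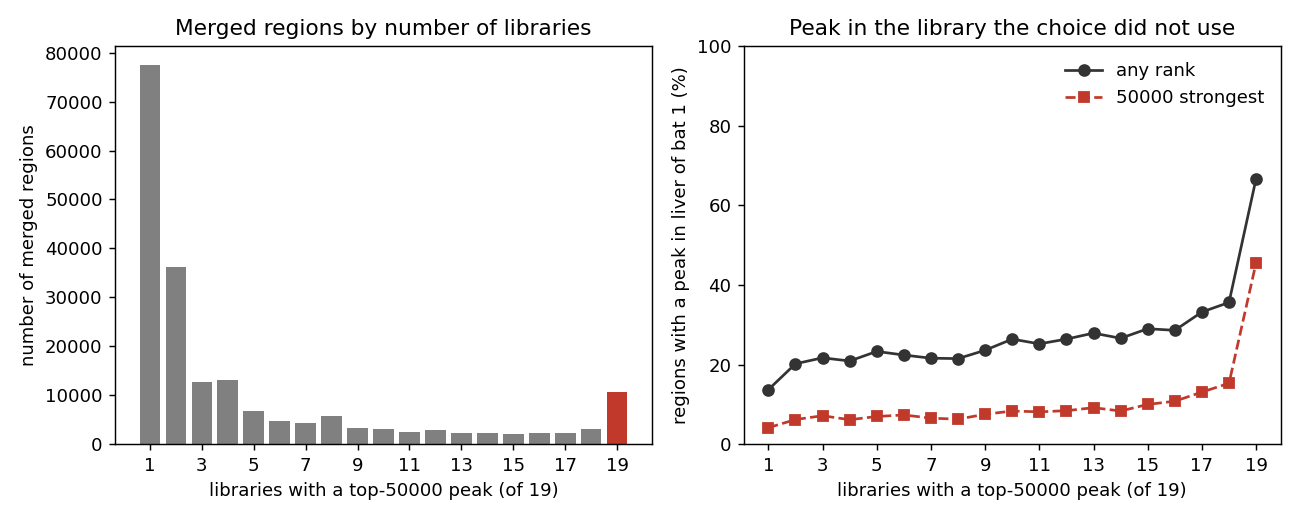
Left, number of merged regions by the number of the 19 libraries with a peak among the 50000 strongest, with the 10616 regions open in all 19 in red. Right, the share of these regions (%) that held a peak in liver of bat 1, the library the choice did not use, at any rank (circles) and among its own 50000 strongest (squares): 66.7% and 45.6% at 19 libraries against 35.6% and 15.3% at 18.

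The count depends on what is asked of each library. With the 25000 strongest intervals it was 6672, and with the 100000 strongest it was 14638. With the 50000 strongest and liver of bat 1 required too, it was 4838. When the interval of each library had to cover at least 50% of the merged region, an alternative added after seeing the data, 1522 regions were left. At the limit itself, the 3 members just inside ranked 50000 in putamen of bat 1, 49993 in 2A of bat 1 and 49989 in wM1 of bat 3. The 3 regions just outside ranked 50004 in liver of bat 3, 50027 in testis of bat 3 and 50036 in caudate of bat 3. Their folds in the library that kept them out were 2.96, 3.37 and 11, since the same rank stood for very different peak strengths in liver and caudate.

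Liver of bat 1, which had no part in the choice, held a peak of any rank in 7079 members, or 66.7% (95% exact Clopper-Pearson interval 65.8 to 67.6). The share over all merged regions was 21.6%. It was 13.7% (13.5 to 14) for regions open in 1 library, 22.8% (22.5 to 23) for those open in 2 to 18, and 35.6% (33.9 to 37.4) for those open in 18. These intervals cover counting error only and treat regions as independent, which neighbouring regions are not. The share in regions that were not open everywhere differed with the tissue that was missing, and a liver or testis library was the missing one for most regions open in 18. It was 33.4% of the 1310 regions missing in liver of bat 3 alone and 26.7% of the 431 missing in testis alone. It was 35.2% of the 54 missing in muscle, 42.3% of the 111 missing in cerebellum and 63% of the 54 missing in caudate. The 148 regions open in all 5 non-brain libraries and in no brain library gave 56.8%, and the 564 open in all brain libraries and in no other gave 20.2%. The 54 regions that lacked caudate thus came near the members, and those that lacked liver, testis, muscle or cerebellum did not.

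Members are wider than other regions and so have more room for a peak. Among regions of 1000 to 2000 bases, a range chosen after seeing the data, the share was 65.7% of 7226 members and 35.5% of 1787 regions open in 18 libraries, with median widths of 1504 and 1392 bases. It was 23.2% of 3442 regions open in 1 library, above the 13.7% without the width range. The shares of members and of regions open in 18 libraries thus hardly moved.

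Strong peaks in liver of bat 1 gave the same order. A peak among its own 50000 strongest was found in 4838 members (45.6%), against 8.12% of all merged regions and 15.3% (14.1 to 16.7) of those open in 18 libraries. Members made up 44.9% of its 1000 strongest intervals. The library was the weakest of the 20 at rank 50000, where its fold was 2.12 and its −log10 p 4.23. Of its 50000 strongest intervals, the 5520 inside members had a median fold of 2.38 and the 44480 outside 2.23. Over all its intervals the medians were 2.15 for the 9642 inside members and 1.92 for the 180522 outside.

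How strong a member was in its weakest library went with its chance of a peak in liver of bat 1. Members were ordered by their weakest rank, which is the rank in whichever of the 19 libraries had them lowest. The 19 include liver of bat 3, the weakest library for 1437 members. A good weakest rank thus requires a good rank in that liver too, and its part was not separated. They were split in this order into 4 sets of 2654. In the set whose weakest rank was 9628 or better, 93.1% held a peak in liver of bat 1 and 79.1% a strong one. The shares fell to 69.4% and 47.4%, then 55.2% and 30.7%, and then 49.1% and 25.1% in the set with weakest ranks from 31402 to 50000. Median width changed little over these sets, from 1622 to 1515 bases.

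The choice was also made in 1 animal and read in the other, which shares no library with it. Regions open in all 9 tissues of bat 1, liver left out, numbered 14446, and 73.3% of them were open in all 10 tissues of bat 3. The lowest single share was 83.6% in liver and the highest 99.8% in putamen. Of the 4753 regions open in all but 1 of the bat 1 libraries, 10.9% were open in all tissues of bat 3. Their single shares ran from 41.4% in testis to 97.8% in putamen.

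In the other direction, 11270 regions were open in all 10 tissues of bat 3, and 94.2% of them were open in all 9 tissues of bat 1. The single shares ran from 97.6% in testis to 99.9% in wM1. Of the 4412 regions open in all but 1 library of bat 3, 57.2% were open in all 9 of bat 1. Their single shares ran from 76.4% in testis to 98.1% in wM1. Bat 3 included liver and bat 1 did not, so the shares of both directions are not on the same footing.

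Within each library the members sat near the head of the list. They made up 86.3% (cerebellum of bat 1) to 99.7% (wM1 of bat 1) of the 1000 strongest intervals and 67.1% to 96.2% of the 5000 strongest. Their share fell to between 0.9% and 5.64% among the last 10000 of the 50000. Over the whole 50000 it was 21.5% to 24.9%. Among the 5000 strongest the share was lowest in cerebellum (67.1% and 69.3%), muscle of bat 3 (70.3%), caudate of bat 3 (78.5%) and liver of bat 3 (79.9%), so more of the strongest peaks in these libraries were not shared by all tissues.

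**Figure D2:**
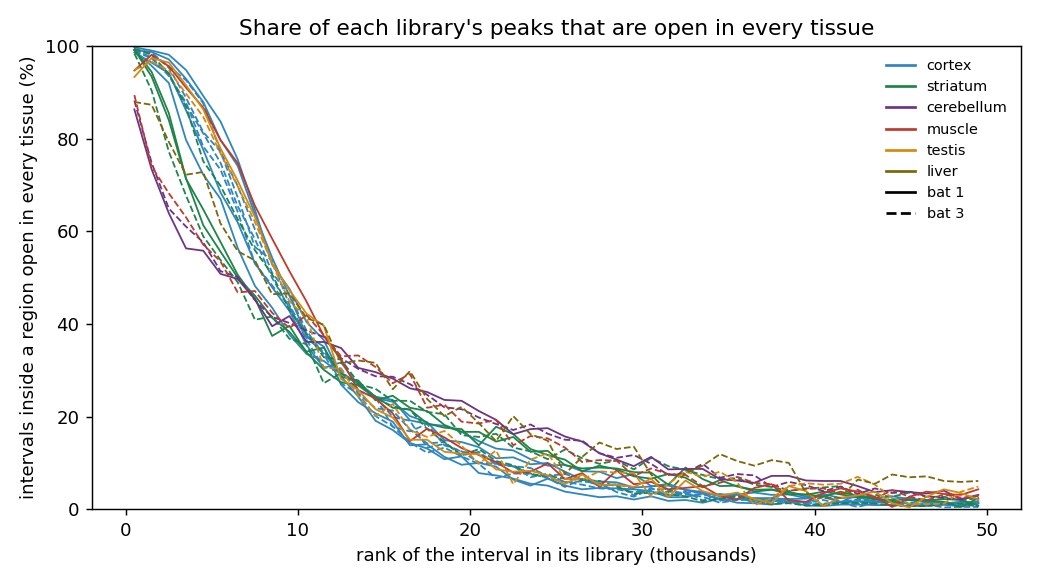
Share (%) of each library's intervals, in steps of 1000 ranks from the strongest, that lie inside a region open in all 19 libraries; 1 line per library, coloured by tissue and dashed for bat 3. The first 1000 intervals reach 86.3% to 99.7% and the last 10000 hold 0.9% to 5.64%.

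The median rank of a member ran from 5586 in wM1 of bat 1 to 9270.5 in cerebellum of bat 1. Cerebellum of bat 3 (8965) and muscle of bat 3 (8798) were next to the last, while muscle of bat 1 (5826) and the testis libraries (5870.5 and 5962) lay among the cortical ones. The 2 muscle libraries differed in median rank by more than the pair of libraries of any other tissue did. The weakest library of a member was most often muscle of bat 3 (2130 members, 20.1%), then liver of bat 3 (1437), cerebellum of bat 1 (1321) and cerebellum of bat 3 (1208). It was wM1 of bat 1 for only 31.

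**Figure D3:**
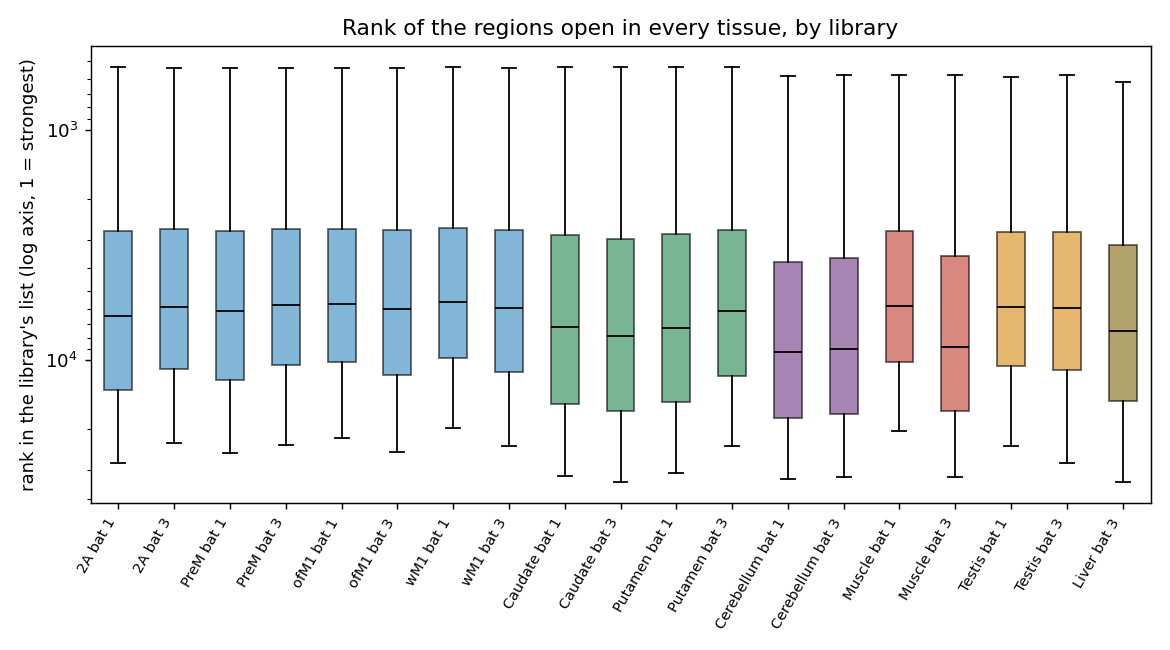
Rank of the 10616 regions in each of the 19 libraries (log axis, strongest at the top); boxes give the quartiles and the median, whiskers the 5th and 95th percentiles over regions. Medians run from 5586 (wM1 bat 1) to 9270.5 (cerebellum bat 1).

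A single member could stand at very different ranks. The best rank of a member over the 19 libraries had a median of 2286 and the weakest a median of 19188, and the weakest was a median 7.82 times the best (quartiles 5.23 and 13.2). Within the 14 brain libraries the ratio was 4.68. Only 6 members ranked within the first 100 in all 19 libraries, 106 within the first 1000, 1195 (11.3%) within the first 5000 and 2758 (26%) within the first 10000. Open in every tissue was thus seldom the same as equally ranked in every tissue.

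The member that led all lists lay at bases 124334499 to 124335693 of scaffold NW_023416295.1 and was 1195 bases wide. It ranked 1 in each of the 19 libraries and also in liver of bat 1. Its fold was 18.2 to 28.1 over the 14 brain libraries (median 24.8), 27.4 and 24.2 in muscle of bats 1 and 3, 32.5 and 32.8 in testis, and 29 in liver of bat 3. It reached 28 in liver of bat 1. Both testis libraries and liver of bat 3 lay above every brain library, while the muscle values fell within the brain range. Its strongest summits lay within 10 bases of each other in all 19 libraries. Whether so strong a peak in every library comes from accessibility alone was not tested.

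The region at bases 20666939 to 20667674 of scaffold NW_023416293.1 came next. It ranked 2 or 3 in the 5 non-brain libraries and 3 to 13 in brain. Its fold was 11.9 to 17.6 in brain (median 13.2), 14.4 and 12.1 in muscle, 14.4 and 14.7 in testis, and 11.6 in liver of bat 3. In liver of bat 1 it was 12.5 at rank 2. Muscle and testis lay inside the brain range here, and liver of bat 3 just below it.

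Bases 33375559 to 33377586 of scaffold NW_023416312.1 held the third of these regions, which ranked 2 in all 14 brain libraries. Its ranks outside brain were 6 and 4 in muscle, 8 and 5 in testis and 13 in liver of bat 3. Its fold was 13.6 to 19.5 in brain (median 15.2), 11.1 and 12.2 in muscle, 12.2 and 14.5 in testis, and 12.8 in liver of bat 3. Brain reached higher folds, but testis of bat 3 lay inside the brain range.

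A second region on that scaffold, at bases 33346358 to 33348461, also belonged to the 10 members with the best weakest rank. Its fold was 14 to 24.6 in brain (median 17.9), 8.88 and 10.8 in muscle, 7.7 and 8.18 in testis, and 6.58 in liver of bat 3. All brain values were above all others here, while its weakest rank was still 104. Over the 10 the weakest rank ran from 1 to 223, and all 10 held a peak in liver of bat 1, at ranks 1 to 1070.

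The fold of a peak is the caller's enrichment over its own background and is not scaled between libraries, so its level describes a library as much as a region. The median fold of members was 10.1 (ofM1 of bat 3) to 15.6 (putamen of bat 1) in brain and 5.26 (liver of bat 3) to 9.2 (muscle of bat 3) in the other tissues. The other strong intervals showed the same shift, with 6.45 to 12.3 in brain and 3.38 to 5.48 elsewhere. Within a library, the members' median was 1.19 (caudate of bat 1) to 2.05 (muscle of bat 1) times that of the other strong intervals. In its weakest library a member had a median fold of 4.76 (quartiles 3.74 and 6.3) and in its strongest 17.6. With liver of bat 1 required too, the median in the weakest library was 2.44.

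The mean fold over brain divided by that over the other tissues had a median of 1.71 across members (quartiles 1.42 and 2.12). It was below 1 for 149 members (1.4%). Folds are not scaled between libraries, and the other strong intervals had median folds of 8.03 in brain and 3.44 elsewhere (medians over libraries). The level of the ratio is therefore not read as a trait of the members. The highest ratio, 5.13, belonged to bases 40535302 to 40536435 of scaffold NW_023416285.1. Its fold was 18 to 27.3 in brain (median 20.5), 3.44 and 5.45 in muscle, 3.59 and 3.89 in testis, and 4.17 in liver of bat 3. The brain values were all more than 3 times the highest of the others, and the region was at the same time among the 50000 strongest in each of them. By rank the gap was less clear. Brain ran from 1122 to 23625, and liver of bat 3, at 17847, lay inside that range. Muscle and testis ranked later, at 31054 to 36815. The 5 highest ratios ran from 4.6 to 5.13.

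The lowest ratio, 0.538, belonged to a short region of 292 bases, at 47657333 to 47657624 of scaffold NW_023416308.1. Its fold was 11.4 to 38.3 in brain (median 22.7), 42.6 and 31.6 in muscle, 43.7 and 44.2 in testis, and 44.7 in liver of bat 3. In liver of bat 1 it was 39.5 at rank 15. Its rank was 9 to 17 in the 5 non-brain libraries and 18 to 39817 in brain, lowest in caudate of bat 3. The brain libraries differed among themselves far more than the other tissues did at this site. Bases 44282449 to 44283925 of scaffold NW_023416284.1 had the next lowest ratio, 0.629, with 5.06 to 7.89 in brain (median 6.32), 9.97 and 18.8 in muscle, 9.03 and 8.7 in testis, and 4.81 in liver of bat 3. Muscle and testis lay above every brain value there and liver below them.

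Ranks allow each tissue to be set against the others without using the scale of the fold. Since the rule used these ranks, the counts below describe the members, and the shares over all merged regions beside them are given without a reading, as a region without a strong peak in a library counts as tied for last there. All 14 brain libraries ranked ahead of all 5 others in 115 members (1.08%, and 0.719% of all merged regions), and all 5 ahead of all 14 in 237 (2.23% and 0.361%). Full separation of 14 libraries from 5 is a strict demand, so the overlap in the remaining members is not read as a trait of theirs.

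The 2 cerebellum libraries both ranked last more often than the 2 of muscle or of testis did, although muscle of bat 3 alone was weakest most often. A rank also depends on the other peaks in a list. The median fold of members in cerebellum was 14.9 and 13.4, or 1.89 and 1.96 times that of its other strong intervals, so a late rank is not a low fold. Both cerebellum libraries ranked behind all 17 others in 1582 members (14.9%, and 0.915% of all merged regions) and ahead of all 17 in 666 (6.27% and 8.54%). Testis was ahead in 728 (6.86% and 5.7%) and behind in 286 (2.69% and 0.487%). Muscle was ahead in 544 (5.12% and 4.71%) and behind in 279 (2.63% and 0.224%). Liver, with 1 library and so more easily first or last, was ahead in 926 (8.72% and 13.6%) and behind in 1437 (13.5% and 1.39%).

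The 2 animals were compared tissue by tissue over the 9 tissues with both libraries. Bat 1 ranked ahead in all 9 in 173 members (1.63%), and bat 3 in 81 (0.763%). Over the 11926 regions open in these 18 libraries the shares were 1.51% and 0.78%, close to those of the members, most of which are the same regions. At bases 4598875 to 4600415 of scaffold NW_023416290.1, bat 1 was ahead by at least 3.1 times in every tissue, with ranks of 41 and 165 in cerebellum, 116 and 2341 in wM1 and 683 and 2707 in muscle for bats 1 and 3. At bases 119013837 to 119015149 of scaffold NW_023416307.1, bat 3 was ahead by at least 1.94 times, with ranks of 13134 and 4659 in cerebellum, 15035 and 3439 in wM1 and 23419 and 12060 in muscle.

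The order of the members was compared between libraries by rank. Spearman's rho of rank across the 10616 regions was 0.752 (muscle) to 0.962 (cerebellum) for the 9 tissues compared between the animals, with a median of 0.837. It was 0.419 to 0.933 (median 0.682) over the 81 pairs of different tissues from different animals. Most same-tissue pairs are of brain, and among brain libraries alone the medians lay close, at 0.837 for the same region and 0.811 for different regions of different animals. Pairs of a brain region with another tissue had a median of 0.631. The correlations are across regions, which are not replicates, and all share the selection of strong peaks. The 4 cortical areas had 0.811 to 0.837 between animals, below the 0.957 of caudate. Within bat 1, the highest cortical pairs were 2A with PreM (0.973) and ofM1 with wM1 (0.95), above the value of each area between the animals. The lowest was 2A with ofM1 (0.813), below the 0.837 of 2A between the animals. Different cortical areas of different animals reached 0.89, for PreM of bat 3 with wM1 of bat 1.

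**Figure D4:**
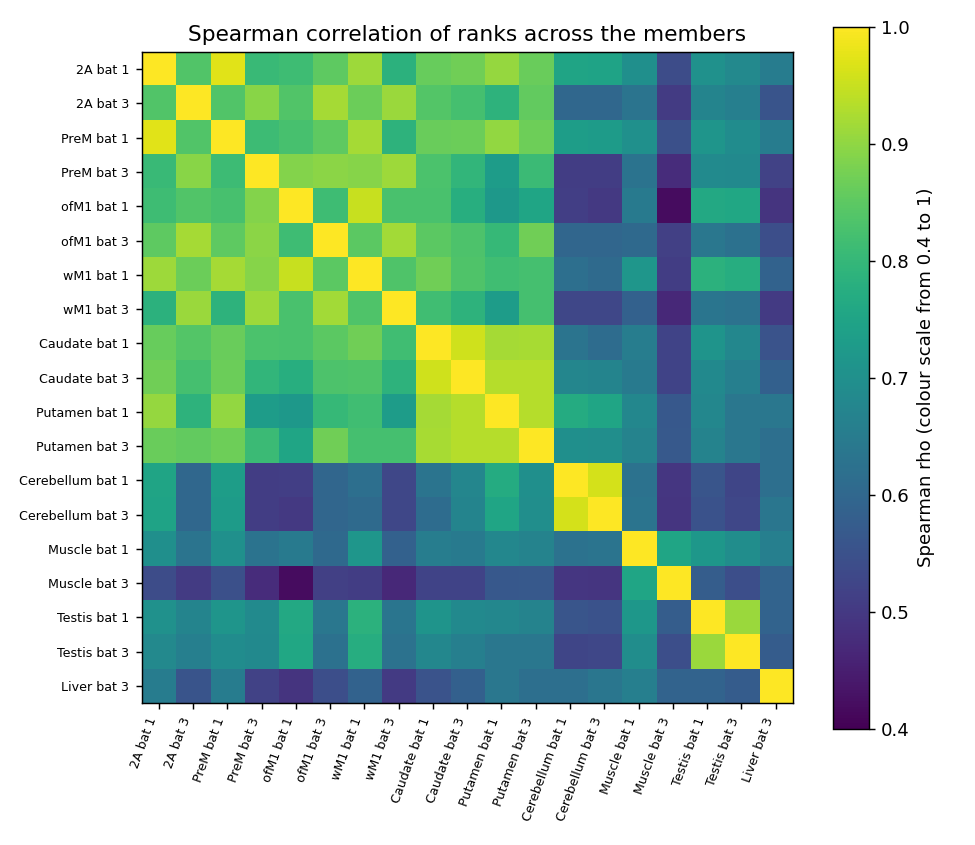
Spearman correlation of rank across the 10616 regions for every pair of the 19 libraries (colour scale from 0.4 to 1). Cerebellum (0.962) and caudate (0.957) are most alike between the animals, and ofM1 of bat 1 with muscle of bat 3 is the lowest pair (0.419).

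The merged regions had a median width of 1586 bases (quartiles 1288 and 1957, range 264 to 5073). The median was 753 over all merged regions, 335 for regions open in 1 library and 1308 for those open in 18. Merging more intervals widens a region, so the intervals of single libraries were compared too. The strongest interval in each member was set against all strong intervals outside members, so further intervals inside members were left out. In each of the 19 libraries the former had the larger median width. The medians were 1183 and 820 bases in 2A of bat 1, 888 and 336 in muscle of bat 1, and 500 and 232 in liver of bat 3. Within the members, the width of the merged region was hardly related to rank in a library, with a Spearman rho from -0.135 to 0.138 over the libraries. Interval width was not set against rank.

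Much of a region lay under a strong interval in some libraries and not in all. The strongest interval in a member had a median width of 500 bases in liver of bat 3 and 1416 in ofM1 of bat 3. Bases outside a library's intervals can therefore not be read as closed there. The bases covered in all 19 libraries numbered a median of 464 per member (quartiles 271 and 688), or 29.8% of the merged width. At least 10 libraries covered a median of 1162 bases. In 10390 members at least 100 bases were common to all libraries, and in 214 (2.02%) no base was, so that these regions were joined by overlapping neighbours. In 7358 members (69.3%) each library had a single interval. Of all members, 202 were wider than 3000 bases.

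The widest lay at bases 39180100 to 39185172 of scaffold NW_023416287.1, with 10 to 14 summits in each library and folds of 2.6 to 4.48. Its rank was 30 to 3957 in the 5 non-brain libraries and 8 to 41573 in brain. The narrowest had 264 bases, at 42356080 to 42356343 of scaffold NW_023416309.1, and 1 summit in every library. Its fold was 7.45 to 19.1 in brain (median 9.58), 5.35 and 6.16 in muscle, 4.67 and 3.73 in testis, and 4.82 in liver of bat 3.

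Members usually held several summits, the points where the caller placed a local maximum. Their mean number per member was 1.85 (liver of bat 3) to 4.03 (ofM1 of bat 3), against 1.1 to 2.5 per other strong interval in the same libraries. At least 3 summits were found in 21.8% to 79.4% of members and in 1.09% to 41.7% of the other intervals. Member counts cover all intervals of a member in a library, 1.01 to 1.17 on average, while the other counts are per single interval. The strongest intervals of members were also wider, and summits were not compared at equal width. The mean numbers and the shares were lowest in liver of bat 3, whose intervals were also the narrowest.

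The position of the strongest summit was not used by the rule. The strongest summits of a member in the 19 libraries spanned a median of 97 bases (quartiles 49 and 309). They lay within 50 bases in 26.4% of members, within 200 in 6903 (65%) and more than 1000 apart in 556 (5.24%). In the 14 brain libraries alone, the span had a median of 38 bases and was within 200 in 80.8%. The 7004 regions open in all brain libraries but not in all 19 were no looser, with a median of 26 bases and 84.4% within 200. Among brain libraries, the close placing of summits is therefore not particular to regions open in every tissue. The 3040 regions open in 18 libraries had a median span of 63 bases and 66.7% within 200, though over fewer libraries.

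**Figure D5:**
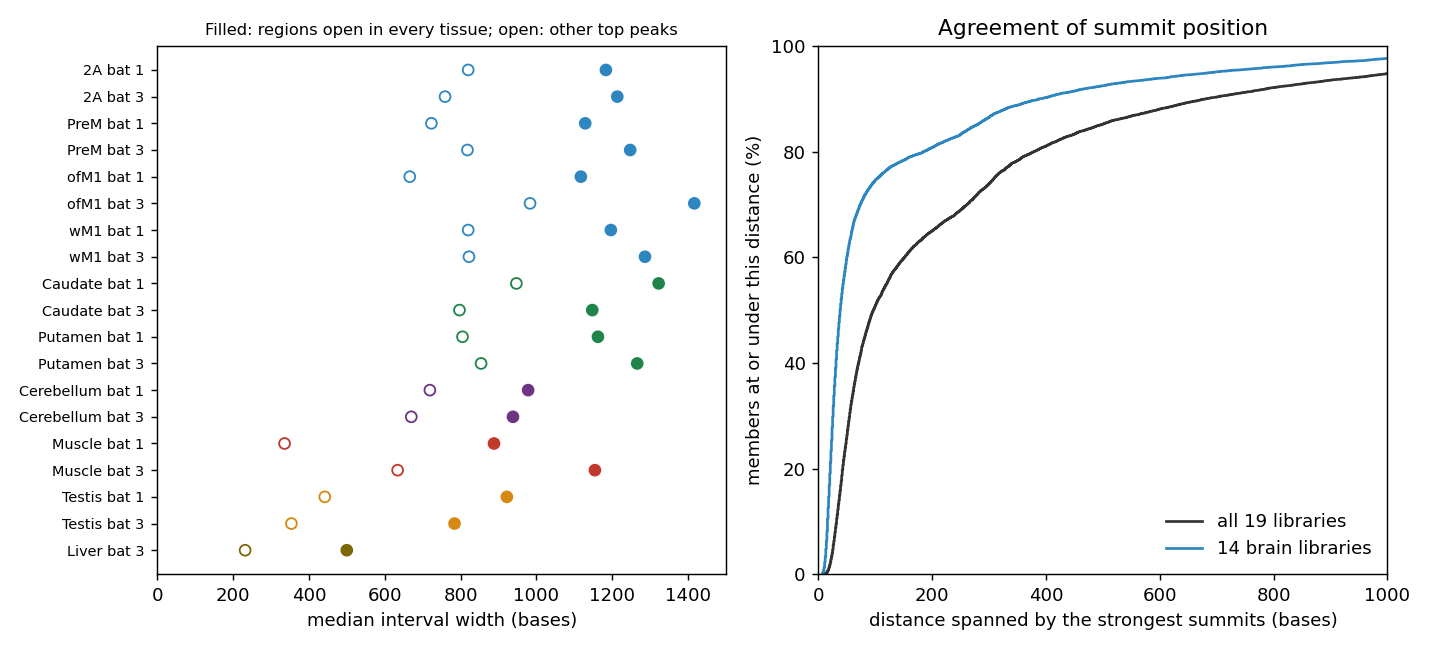
Left, median interval width (bases) in each library for the strongest interval in each of the 10616 regions (filled) and for intervals outside them among the 50000 strongest (open). Right, share of the 10616 regions (%) whose strongest summits span at most the distance on the horizontal axis (bases), for all 19 libraries, where 65% lie within 200, and for the 14 brain libraries, where 80.8% do.

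Between pairs of libraries the strongest summits lay very close. The median distance was 5 to 9 bases for the same brain region in both animals, 17 for testis and 21 for muscle. Across animals, it was 6 to 15 bases between different brain regions, 16.5 to 28 between a brain region and another tissue, and 26 to 29 between different non-brain tissues. Within 50 bases were 89.7% to 94.7% of members for the same brain region, 73.7% for muscle and 81.6% for testis. Other regions open in both libraries of such a pair gave 91.6% to 97.4% in brain, 70.1% in muscle and 55.9% in testis. Across animals, brain with another tissue gave a median of 74.8% for members and 69.3% for other regions. Different non-brain tissues gave 67.4% and 55%. In pairs of a brain library with muscle of bat 3, the other regions had the higher share.

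Members were spread over the assembly. They lay on 21 of the 28 scaffolds that had any merged region, and 10586 of them on the 18 scaffolds with at least 100. On these 18 they made up 3.97% to 6.61% of the merged regions, at 2.21 (scaffold NW_023416312.1) to 7.94 (NW_023416291.1) per Mb. Scaffold NW_023416312.1 had few merged regions of any kind, 3554 over 106 Mb, against 12129 over 114 Mb on NW_023416310.1. Members made up 6.61% of those on NW_023416312.1. The median gap between neighbours was 73003 bases, 892 gaps (8.42%) were under 10000 and 294 were over 1 Mb. The densest window of 1 Mb held 35 members, between bases 18083569 and 19077447 of scaffold NW_023416311.1. The longest stretch without one was 5.18 Mb on scaffold NW_023416289.1.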

How the data were processed

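ATAC-seq peak lists of 20 libraries were used, and the RNA-seq estimated counts were not used here. The authors deposited 1 narrowPeak list per library, with up to 300000 rows. The deposited rows hold a fold enrichment (peak over background, a ratio), −log10 p, −log10 q and a summit offset. Bowtie2, MACS2 and Salmon 1.5.2 are named, without roles, in the submitters' processing notes. A genome build was not given in the sources used here. Read depth behind the lists is unknown.

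Rows with the same interval were collapsed, keeping the highest −log10 p. The 50000 intervals of highest −log10 p per library were kept, with ties at the limit (up to 2427 intervals) ordered by position. An overlap of 1 base counted. A member's value in a library is that of its strongest interval there, and the strongest summit is that of the row with the highest −log10 p. Scripts ran in Python 3.11.15 (numpy 2.4.6, pandas 2.3.3, scipy 1.17.1) and were tested on simulated data. No comparison carries a p-value. Intervals on shares are exact binomial (95%). The members, lists and rules were chosen with earlier results of these data known. Regions named are the 10 with the best weakest rank, the 5 highest and 5 lowest brain to non-brain fold ratios, the 5 widest and 5 narrowest, and 3 on each side of the limit. The 2 regions given for the comparison of the animals were chosen after their values were seen. Alternatives were other rank limits, ranking by fold, other overlaps, 1 animal, all 20 libraries and each library left out. The planned work on gene starts, gene groups, markers and sequence was not run, because no genome was used and the RefSeq gene table names no scaffold.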

Additional observations from a re-analysis of the deposited data

How the results depend on the processing

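The number of regions was 6672 with the 25000 strongest intervals, 14638 with the 100000 strongest and 4838 with all 20 libraries. It was 1522 when each interval had to cover at least 50% of the region, an alternative chosen after seeing the data. Leaving out 1 library gave 10616 to 11925, the highest without liver of bat 3. Ranking by fold gave 8980 regions, which held 80.8% of the members. The median width was 1361 bases without bat 3, and 1550 to 1586 with 1 library left out. The share with a peak in liver of bat 1 was 76.3% with 25000 intervals, 60.2% with 100000, 65.7% ranked by fold, 64.8% without bat 1, 57.7% without bat 3, 89% with intervals covering 50% and 45.6% for strong peaks, and 63% to 66.7% with 1 library left out. The share with summits within 200 bases was 70.6% with 25000 intervals, 59.1% with 100000, 70.6% ranked by fold, 68.3% without bat 1, 79% without bat 3, 51.4% with all 20 libraries and 59.8% with intervals covering 50%, and 64.9% to 68.2% with 1 library left out. It was 50.9% within 100 bases and 81% within 400. The median fold in the weakest library, 4.76, was 2.44 with all 20 libraries, 6.46 with intervals covering 50%, and 4.69 to 5.43 with 1 library left out. The causes were not tested. The planned overlap of 50% in either direction changes nothing by construction, since a merged region contains its intervals, and alternatives on gene starts were not run. No paired analysis was possible because no result here comes from a test to which a block could be added, and the tissue-by-tissue comparison of the animals is a count of ranks. With no depth given, a missing peak in a weak library such as liver of bat 1 cannot be read as closed chromatin.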

Other observations

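A small set of members was far stronger in liver of bat 1 than the rest. Of the 10616 members, 3537 had no peak there, 6447 had a fold under 3, 611 had 3 to 6, 1 had 6 to 8, and 20 had 8 or more (the limit of 8 was chosen after the values were seen). Those 20 had folds of 9.61 to 39.5 there and made up most of the 30 members among its 100 strongest intervals. They were narrower than the other members, with a median width of 843 against 1587 bases. Their brain to non-brain fold ratio was 0.538 to 1.16 (median 0.94), against a median of 1.71 for the others. Their highest fold over the 19 libraries was a median of 1.69 times the lowest, against 3.43. Their best rank had a median of 8.5, yet their weakest rank had a median of 32644, and the weakest library was caudate of bat 3 for 12 of the 20. The list includes the leading region described above, and 4 of the 20 lie between bases 36199158 and 36219574 of scaffold NW_023416308.1. The small spread of fold is a median and did not hold for every region. The region of lowest ratio, 0.538, ran from 11.4 to 44.7 over the 19 libraries. No exclusion list was applied to the deposited peaks here, and why the median spread was small was not tested.

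Regions open in every tissue but 1 were also counted, with a tissue taken as missing when none of its libraries had a strong peak. Testis was the only missing tissue for 431 regions, and 108 of these had no testis peak in the deposited lists at any rank. Cerebellum was missing for 111 (4 with no listed peak), muscle for 54 (4), caudate for 54 (0) and putamen for 3. No region was missing in just 1 of the 4 cortical areas. Liver, with 1 library, was missing for 1310, of which 466 had no listed peak. The lists of all brain libraries and of testis of bat 1 stop at 300000 rows, with lowest −log10 p of 2.8 to 12.3, while the others go down to 2, so the lists end at different strengths and the counts without a listed peak are not comparable between tissues. Regions open in all 5 non-brain libraries and in no brain library numbered 148, and those open in all 14 brain libraries and in no other numbered 564.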
